A study of Homo sapiens with 8 samples.

Results

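The chromosome 17 enhancers of 4 medulloblastoma lines were compared between the short arm, 17p, and the long arm, 17q. Every region on chromosome 17 in the deposited enhancer tables was a member, 3336 of 88550 regions over the 4 lines. A region belonged to 17p when it ended below 22.7 Mb and to 17q when it started above 27.4 Mb in GRCh38, which gave 821 short-arm and 2501 long-arm regions. The 14 regions between these limits lie next to the centromere and were left out. A region is assigned to an arm by its position.

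Each line had 1 chromatin immunoprecipitation library for H3K27Ac, the acetylated histone H3 mark of active enhancers, and 1 input library of the same chromatin without antibody. MB002, D425 and HD-MB03 are established lines labelled as Group 3 subtype (G3-MB), and UW228 is an established line labelled as SHH subtype. No treatment or genetic change is named for any of them in the labels. MB002 and HD-MB03 grew in Tumor Stem Media and D425 in serum medium, as did UW228 by the methods, so medium and line cannot be told apart. UW228 was also processed at a later date than the G3-MB lines by the file headers, and that date cannot be told apart from its subgroup. Each line is 1 culture without replicate, so no value below has a replicate error within a line, and the spread given is that over lines.

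Enhancers are stretches of regulatory DNA that raise transcription of genes at a distance, and dense clusters of them with a very strong H3K27Ac signal are called super enhancers (SEs), the others typical enhancers (TEs). Medulloblastoma is an embryonal tumour of the cerebellum, and loss of the short arm together with gain of the long arm of chromosome 17, often as an isochromosome made of a pair of long arms, is a frequent change in Group 3 tumours. An input library samples the genome without selection for a mark, so its reads per base follow the amount of DNA present, and also base composition, mappability and chromatin openness.

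The regions per line on 17p and 17q were 159 and 779 for MB002, 295 and 569 for D425, 212 and 596 for HD-MB03, and 155 and 557 for UW228. Among 6 Group 3 marker genes, which include the transcription factor genes OTX2 and CRX, 6 had a region for MB002, 5 for D425, 5 for HD-MB03 and 2 for UW228. OTX2 carried an SE in each G3-MB line, at ranks 3, 3 and 5 for MB002, D425 and HD-MB03, and had no region in UW228. Input per base at these OTX2 regions was 35.2, 53.3 and 5.84 times the median of all regions of the line. The part of input in these ranks was not tested. CRX carried an SE at rank 84 in MB002 and 89 in D425, a TE at rank 1425 in HD-MB03 and no region in UW228. Of 6 SHH marker genes, UW228 had a region at 5, none of them an SE and none at ATOH1. In that line 1.73% of the genes on 17p and 4.17% of those on 17q had an SE, so 0 of 6 is near the background and says nothing about the label. A region is common too. In UW228 60.1% of the genes of 17p and 69.4% of those of 17q had one. Over the 4 lines these shares ran from 54.3 to 80.3% and from 65.2 to 75.8%. A list of 6 genes is too short to tell 5 of 6 apart from the shares of UW228. HD-MB03 had SEs at PTCH1 and GLI1, which belong to that list.

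The sequences below are stretches of 300 bases from 4 regions that the comparison of the arms turns on, shown so that the DNA under the signal can be read. They are the RAI1 region, an SE of 3 lines on 17p, the GAS7 region, the strongest 17p region of MB002, the MSI2 region, the strongest 17q region of each G3-MB line, and the VMP1 region, the strongest 17q region of UW228. All are intronic by GENCODE, are read from the plus strand of GRCh38, and lie at chr17:17692246-17692545 (RAI1), chr17:10117853-10118152 (GAS7), chr17:57553346-57553645 (MSI2) and chr17:59829178-59829477 (VMP1). Capitals mark TAATCC on either strand, the core bound by the homeodomain factors OTX2 and CRX, or TGANTCA, where N is any base. TGANTCA is a looser form of TGASTCA, the core of AP-1 factors, where S is C or G. Candidate windows lay inside the gene and away from exons. Windows with a TAATCC followed by CAGC or preceded by GCCTG, on either strand, were left out. Of the rest, each window was the stretch with the most matches among those covered by a region in the most lines. That was 4 lines for RAI1, MSI2 and VMP1 and 3 lines for GAS7.
RAI1: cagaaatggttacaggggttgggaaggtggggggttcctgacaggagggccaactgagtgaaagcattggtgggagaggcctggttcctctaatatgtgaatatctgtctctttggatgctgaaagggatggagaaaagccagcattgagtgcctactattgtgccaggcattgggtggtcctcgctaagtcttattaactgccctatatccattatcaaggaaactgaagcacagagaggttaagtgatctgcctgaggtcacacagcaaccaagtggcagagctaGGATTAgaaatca
GAS7: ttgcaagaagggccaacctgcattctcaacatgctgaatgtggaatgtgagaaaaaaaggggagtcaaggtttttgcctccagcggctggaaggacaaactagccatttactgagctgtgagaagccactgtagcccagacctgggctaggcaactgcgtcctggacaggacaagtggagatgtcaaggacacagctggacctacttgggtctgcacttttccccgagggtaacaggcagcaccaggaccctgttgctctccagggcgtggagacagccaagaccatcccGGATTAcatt
MSI2: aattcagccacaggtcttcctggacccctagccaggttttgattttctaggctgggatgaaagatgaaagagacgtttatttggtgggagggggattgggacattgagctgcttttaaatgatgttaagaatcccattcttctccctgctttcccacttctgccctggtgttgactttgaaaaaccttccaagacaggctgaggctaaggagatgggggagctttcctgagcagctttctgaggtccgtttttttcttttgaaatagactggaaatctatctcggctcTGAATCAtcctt
VMP1: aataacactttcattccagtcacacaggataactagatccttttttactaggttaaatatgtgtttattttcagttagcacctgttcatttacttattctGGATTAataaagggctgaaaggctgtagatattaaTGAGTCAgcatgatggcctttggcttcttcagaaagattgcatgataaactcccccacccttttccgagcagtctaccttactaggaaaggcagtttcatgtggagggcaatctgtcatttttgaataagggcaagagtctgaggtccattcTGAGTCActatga
The RAI1 and GAS7 windows held 1 TAATCC each, and the VMP1 window 1 TAATCC and 2 TGANTCA. The MSI2 window held 1 TGANTCA, which reads TGAATCA and so is not TGASTCA. Because the windows were picked for matches, these counts describe the windows and not the arms.

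The first question was whether the input of the arms differed, as a change in arm number would make it. Input density was the input signal divided by the length of the region, and relative input density was that value over the median of all regions of the line. On 17p the median relative input density was 0.502 for MB002 (quartiles 0.352 to 0.671), 0.733 for D425 (0.465 to 1.04), 0.970 for HD-MB03 (0.800 to 1.09) and 0.690 for UW228 (0.389 to 0.937). On 17q it was 1.46 for MB002 (1.23 to 1.70), 2.01 for D425 (1.55 to 2.56), 0.964 for HD-MB03 (0.756 to 1.12) and 0.716 for UW228 (0.482 to 0.962). In MB002 and D425 the quartile ranges of the arms did not overlap. In HD-MB03 and UW228 they overlapped almost in full.

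The long arm over the short arm was therefore 2.91-fold for MB002, 2.74-fold for D425, 0.993-fold for HD-MB03 and 1.04-fold for UW228. A long-arm region had a higher density than a short-arm region in 90.4% of pairs for MB002, 92.4% for D425, 49.3% for HD-MB03 and 52.8% for UW228, where 50% would mean no difference. On the log2 scale the mean of the 3 G3-MB lines was 1.00 ± 0.87 (SD, n = 3) and UW228 stood at 0.05, a difference of 0.94 (exact permutation test over lines, two-sided p = 0.75). With 3 lines against 1, the smallest p this test allows is 0.25. Over the 4 lines the mean was 0.76 ± 0.85 (SD, n = 4), higher on 17q in 3 of 4 lines (exact sign-flip test, two-sided p = 0.25, where the smallest possible p is 2 of 16 sign patterns and also misses 0.05). The G3-MB lines ran from -0.01 to 1.54, a range that holds the value of UW228, with MB002 and D425 high and HD-MB03 level with UW228.

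**Figure D1:**
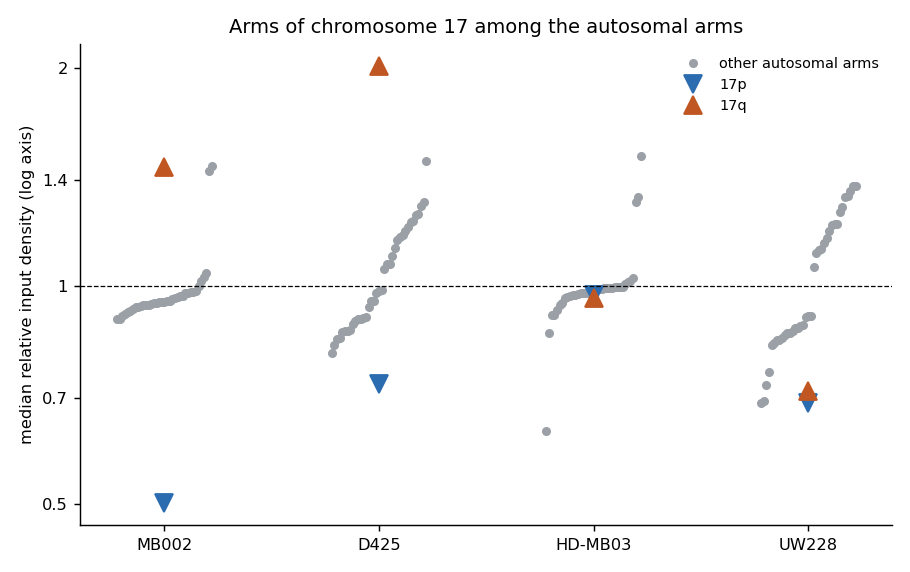
Median relative input density (log axis, line median 1) of each autosomal arm with at least 20 regions, per line, with 17p and 17q as triangles and the other arms as grey dots in ascending order. The short arm is the lowest of 39 arms in MB002, D425 and UW228. The long arm is at or next to the top in MB002 and D425, while in HD-MB03 and UW228 it sits beside the short arm.

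Among the 39 autosomal arms with at least 20 regions, 17p had the lowest input density in MB002, D425 and UW228. The next lowest arm was at 0.899 in MB002, 0.807 in D425 and 0.6903 in UW228. Arm 17q was the highest of 39 in D425, where the next was 8q at 1.49, and the second highest in MB002, just under 1p at 1.46. Over the 17 chromosomes with both arms measured, chromosome 17 had the largest difference between arms in MB002, where the others reached 0.14 on the log2 scale, and in D425, where they reached 0.37. It came in place 15 in HD-MB03 and place 10 in UW228.

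In UW228 both arms were low. There 17p, the lowest arm at 0.6896, was followed by 16p at 0.6903, and 17q was in place 36 of 39. The regions of both arms were rich in G and C, with a median GC content of 47.3% on 17p and 45.8% on 17q against 41.2% on the other chromosomes of UW228. After division by the median of regions of like GC content, UW228 stood at 0.804 on 17p and 0.818 on 17q. The same correction left 17p second lowest in UW228, above 16p at 0.780, and left MB002 at 0.486 and 1.43 and D425 at 0.736 and 2.02, so the gap between the arms in those lines was as large with it.

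The next question was where along the chromosome the density changed. In MB002 the medians of the 5-Mb windows on 17p were 0.467, 0.456 and 0.461 from the telomere to 15 Mb, 0.589 in the window from 15 to 20 Mb and 1.44 in the next. All MB002 windows on 17q lay between 1.39 and 1.54. The best single step of the short arm, by least squares on log2 values with at least 10 regions on each side, fell between 18179312 and 18850651 (GRCh38). The median was 0.470 over the 131 regions with input above 0 before it and 1.38 over the 24 after it, and the step took up 29.4% of the variance. Fitted on the whole chromosome, the step in MB002 came at the same place and took up 48.1%. The high density of MB002 thus began on the short arm and not at the centromere, and 11 of its 14 short-arm regions from 20 Mb on were above 1.

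D425 had a different profile. Its 17p windows rose from 0.552 at the telomere through 0.672 and 0.741 to 1.15 and 1.11, and its 17q windows lay between 1.65 and 2.26. The best step on its short arm fell between 12744490 and 13024981, with medians of 0.633 over 187 regions before and 1.05 over 99 after, and took up 19.05% of the variance. On the whole chromosome the best single step came between 16427487 and 16428356, from 0.684 to 1.95, and took up 44.8%. A single step described D425 less simply than MB002, since the stretch next to the centromere lay between the values of the distal short arm and the long arm.

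HD-MB03 and UW228 had no step that took up a comparable share of the variance. The best step on the short arm took up 0.751% of the variance in HD-MB03 and 2.20% in UW228. On the whole chromosome it took up 0.303% in HD-MB03 and 2.29% in UW228. That of UW228 was a fall from 0.760 over 603 regions to 0.490 over 100, between 73.3 and 74.4 Mb. The 5-Mb windows of HD-MB03 stayed between 0.857 and 1.06 over the chromosome. Those of UW228 ranged from 0.472 to 0.946, with the lowest at the end of the long arm.

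**Figure D2:**
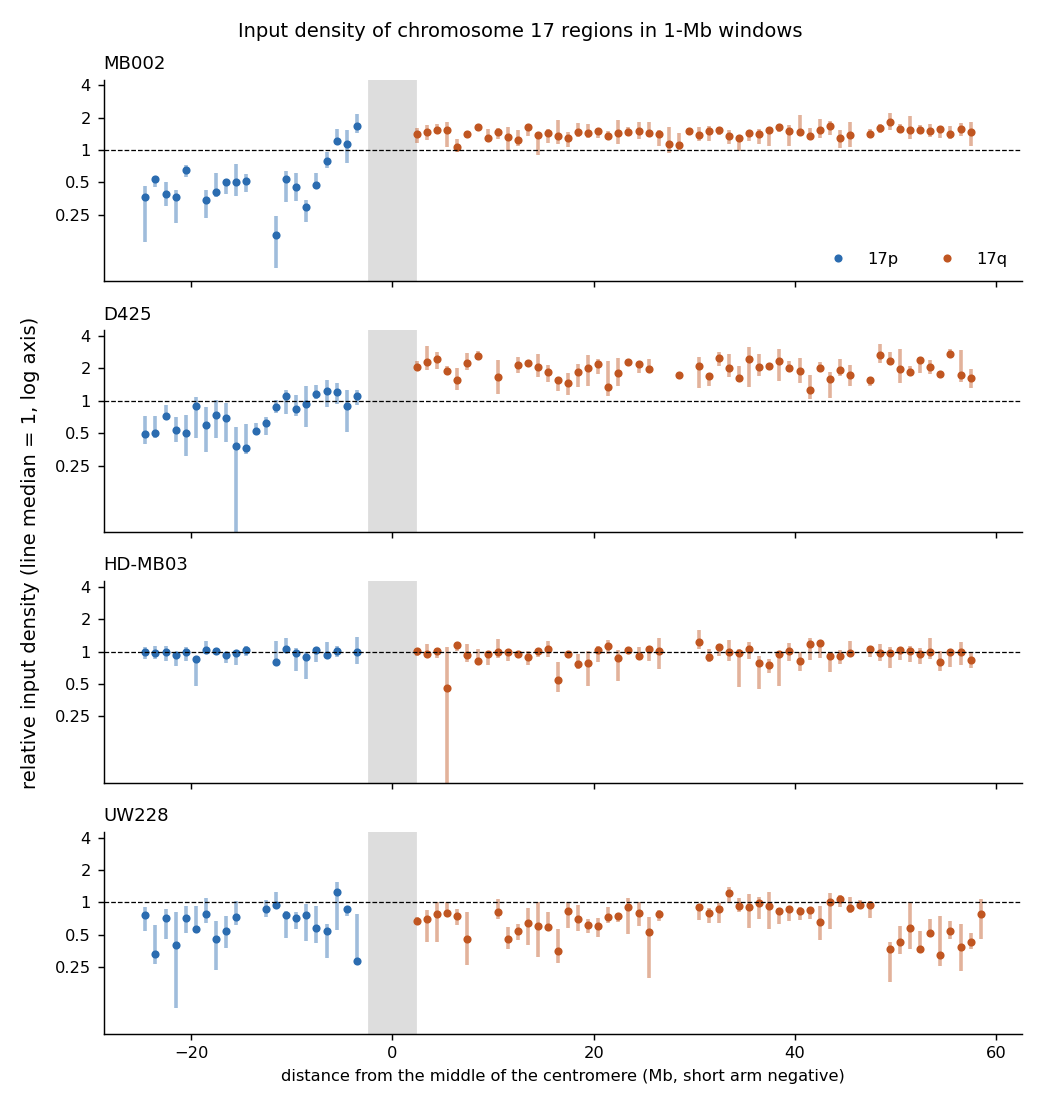
Relative input density (log axis, line median 1) of chromosome 17 regions in 1-Mb windows with at least 3 regions, against the distance from the middle of the centromere in Mb, with the short arm on the left and the centromeric stretch in grey. Points are medians and bars run from the lower to the upper quartile, cut at the lower edge. MB002 steps up inside the short arm, D425 climbs along the short arm and again across the centromere, and HD-MB03 is flat.

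With the short arm divided at the steps of D425 and MB002, a division chosen after the data were seen, the stretch from the telomere to 12.9 Mb had a median of 0.484 for MB002, 0.600 for D425, 0.971 for HD-MB03 and 0.632 for UW228. The middle stretch, to 18.5 Mb, had 0.441, 0.995, 0.964 and 0.729 in the same order. The stretch next to the centromere had 1.38, 1.12, 0.960 and 0.870. Because the limits are the fitted steps of D425 and MB002, the gap between these lines in the middle stretch, where RAI1 and SREBF1 lie, follows from the division and is no result.

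The lines could also be compared at the same places. Where a region of MB002 overlapped a region of HD-MB03, the log2 ratio of input per base had a median of -1.01 over 106 pairs on 17p, 0.58 over 379 pairs on 17q and 0.02 over 8639 pairs on the other chromosomes. For D425 over HD-MB03 it was -0.15 over 115 pairs on 17p, 1.22 over 295 on 17q and 0.24 over 7427 elsewhere. The input of the region was lower in MB002 in all but 12.3% of the 17p pairs and higher in 91.6% of the 17q pairs. UW228 shared fewer regions with the others, between 29 and 53 pairs on 17p. At those places MB002 over UW228 was 0.07 on 17p, 1.12 on 17q and 0.07 elsewhere, D425 over UW228 0.40, 1.52 and 0.07, and HD-MB03 over UW228 0.64, 0.70 and 0.13. On 17q each of the 3 G3-MB lines was above UW228, HD-MB03 included. For HD-MB03 the ratio of 0.64 on 17p was close to the 0.70 on 17q, so this was not particular to the long arm there. Both arms were low in UW228, and these ratios were not corrected for GC content.

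H3K27Ac was compared at the same pairs. The log2 ratio of H3K27Ac signal per base for MB002 over HD-MB03 was 0.63 on 17q, 0.13 on 17p and 0.13 on other chromosomes. For D425 over HD-MB03 it was 0.78 on 17q, 0.24 on 17p and 0.17 elsewhere. Over UW228 it was 0.61 on 17q, 0.18 on 17p and -0.25 elsewhere for MB002, 0.35, -0.12 and -0.42 for D425, and -0.01, -0.30 and -0.25 for HD-MB03. For MB002 over D425 it was lower on both arms, at -0.20 on 17q and -0.26 on 17p against -0.01 elsewhere. The short-arm regions of MB002 that were shared with HD-MB03 thus had a lower input and an H3K27Ac ratio equal to that of the other chromosomes. Regions enter such a pair when a peak was called in both lines, so a place where acetylation was lost in one of them is not counted.

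**Figure D3:**
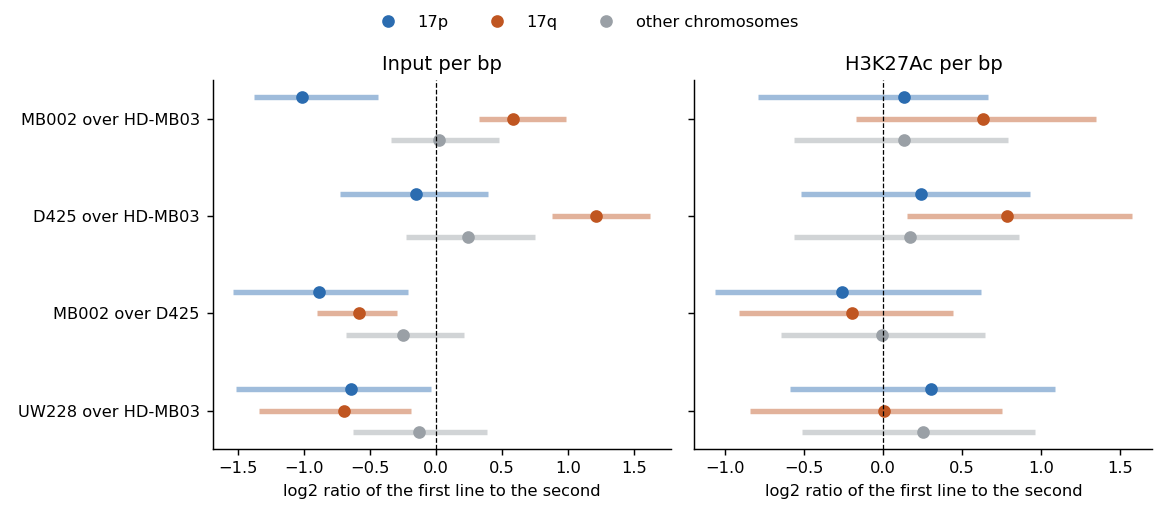
Log2 ratio of input per base (left) and H3K27Ac signal per base (right) at overlapping regions of 2 lines, for 17p, 17q and the other chromosomes. Points are medians and bars run from the lower to the upper quartile. On 17p the input of MB002 over HD-MB03 lies at -1.01 and the H3K27Ac at 0.13, while on 17q both are above 0.5.

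The number of regions was compared next. Per Mb of arm, 17p held 7.004 regions for MB002, 12.996 for D425, 9.34 for HD-MB03 and 6.83 for UW228. The long arm held 13.9 for MB002, 10.2 for D425, 10.7 for HD-MB03 and 9.97 for UW228. MB002 had the largest contrast between the arms, and D425 was the one line with more regions per Mb on the short arm. The log2 ratio of region number, long arm over short arm, was 2.29 for MB002, 0.95 for D425, 1.49 for HD-MB03 and 1.85 for UW228. The G3-MB mean of 1.58 ± 0.68 (SD, n = 3) was below UW228 by 0.27, which is less than the spread between the G3-MB lines (exact permutation test, two-sided p = 0.75, smallest possible 0.25). The direction rested on D425, since without it the difference was 0.05 the other way.

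The lines differ in their total number of regions. As a share of those, 17p held 0.610% in MB002, 0.743% in UW228, 1.12% in D425 and 1.39% in HD-MB03, the same order as the input density of 17p in the 4 lines. On 17q the orders differed, with 2.16% in D425, 2.67% in UW228, 2.99% in MB002 and 3.90% in HD-MB03, so that D425 had the highest input density and the lowest share there. In the distal stretch of the short arm D425 held 196 regions at a density of 0.600, against 134 at 0.971 in HD-MB03 and 93 at 0.484 in MB002. Region number depends on peak calling, for which no depth was given in the files, and its part in these counts was not tested.

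When overlapping regions of the lines were merged, chromosome 17 held 475 loci on 17p and 1319 on 17q. A region in all 4 lines was present at 31 short-arm loci, 6.53%, and at 129 long-arm loci, 9.78%. A region in 1 line alone was present at 63.2% of the short-arm and 60.6% of the long-arm loci. On the other chromosomes 5.18% of 52786 loci had a region in all 4 lines and 68.0% in 1 line alone. MB002 had a region at 30.3% of the short-arm loci and at 54.3% of the long-arm loci, D425 at 57.3% and 39.3%, HD-MB03 at 42.5% and 40.0%, and UW228 at 31.6% and 39.0%. On the other chromosomes these shares were 45.3% in MB002, 45.1% in D425, 36.7% in UW228 and 25.4% in HD-MB03, so that MB002 was below its own background on 17p and above it on 17q, and D425 the reverse. HD-MB03 was above its own background on both arms. Of the loci with a region in MB002, 18.1% on 17p (26 of 144) and 36.5% on 17q (261 of 716) had none in another line, against 42.7% on the other chromosomes. In D425 these shares were 48.9% on 17p and 24.7% on 17q, against 43.4% elsewhere.

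The signal of a region was its H3K27Ac value minus its input, set to 0 where negative. The median on 17p was 1207 for MB002, 864 for D425, 1337 for HD-MB03 and 959 for UW228, beside 890, 717, 846 and 1690 over all regions of these lines. On 17q it was 1563 for MB002, 1992 for D425, 1016 for HD-MB03 and 1699 for UW228. Arm 17q had the highest median signal of the 39 arms in MB002 and in D425, and 17p had the highest in HD-MB03 and the lowest in UW228. Per base pair 17q kept its first place in MB002 and D425, while 17p was in place 14 in HD-MB03 and 33 in UW228. The log2 ratio, long arm over short arm, was 0.37, 1.20, -0.40 and 0.83 in MB002, D425, HD-MB03 and UW228, and the G3-MB mean of 0.39 ± 0.80 (SD, n = 3) lay 0.43 below UW228 (exact permutation test, two-sided p = 0.75, smallest possible 0.25). Per base pair, the signal on 17p was 0.565, 0.521, 0.524 and 0.592 in the same order of lines and on 17q 0.651, 0.773, 0.460 and 0.613. On that scale the G3-MB mean was above UW228 by 0.14 on the log2 scale (two-sided p = 0.75 by the exact permutation test), so the direction of this comparison depends on whether length counts. The ratios of single lines moved too. With regions of at least 1000 bp the log2 ratio was 0.49, 0.52, 0.09 and 0.24 in MB002, D425, HD-MB03 and UW228, so that HD-MB03 changed sign, and at regions shared with UW228 that of D425 was 0.25.

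As a share of all signal of the line, arm 17p carried 0.537% of the signal for MB002, 1.47% for D425, 2.12% for HD-MB03 and 0.506% for UW228. Arm 17q carried 5.70% for MB002, 4.17% for D425, 4.38% for HD-MB03 and 2.41% for UW228. These sums move with the length called, of which 17p held 0.565% for MB002, 1.27% for D425, 2.18% for HD-MB03 and 0.625% for UW228, and 17q held 3.85% for MB002, 2.56% for D425, 4.88% for HD-MB03 and 2.66% for UW228.

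H3K27Ac relative to the input of the same region gave the opposite order in MB002 and D425. The median H3K27Ac over input was 9.68 on 17p and 4.69 on 17q in MB002, and 6.54 and 4.26 in D425. In HD-MB03 it was 6.02 and 5.62, and in UW228 6.67 and 6.91. In MB002 it was 11.3 in the distal stretch and 5.05 next to the centromere, where the input was high. With the median signal divided by the relative input density of its arm, the log2 ratio of long to short arm became -1.17 for MB002, -0.25 for D425, -0.39 for HD-MB03 and 0.77 for UW228, and the difference between the G3-MB mean and UW228 became -1.37 (exact permutation test, two-sided p = 0.25, the smallest possible). By the methods, peaks were called against the input sample, so the input also enters the choice of regions. How far a lower input changes which regions are called was not tested.

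**Figure D4:**
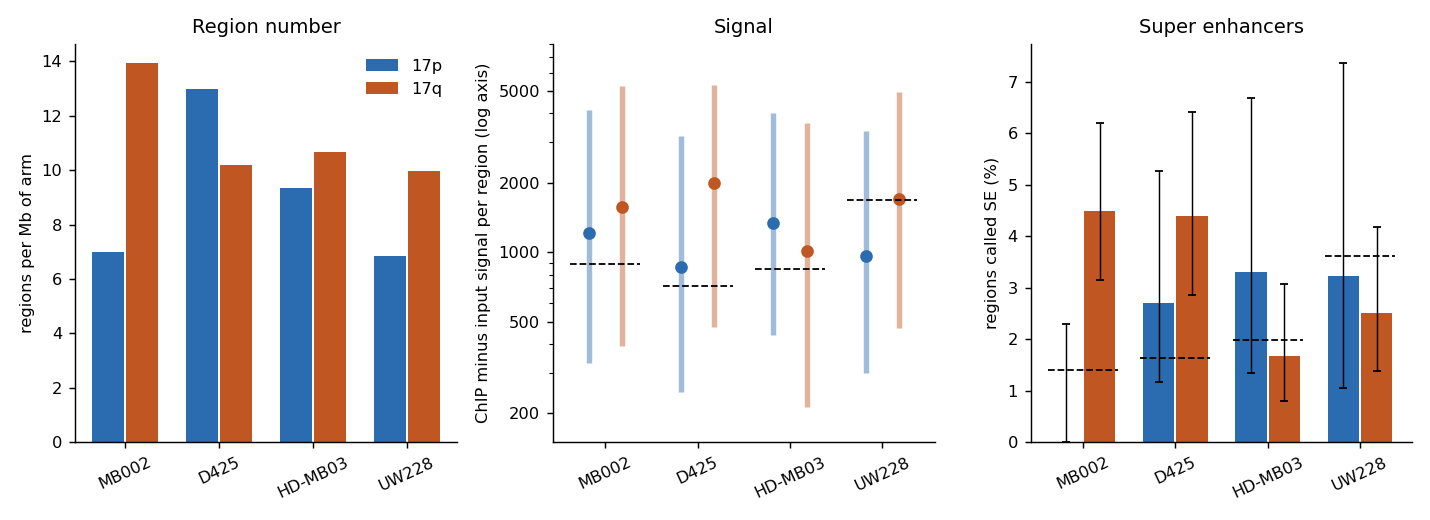
Regions per Mb of arm (left, bars), signal per region (middle, log axis, medians with bars from the lower to the upper quartile) and percentage of regions called SE (right, bars with exact 95% binomial intervals), for 17p and 17q in each line. Dashed lines give the value over all regions of the line. MB002 has no SE on 17p and D425 has more regions per Mb on 17p than on 17q.

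SEs were taken as called by the authors. They made up 1.39% of all regions for MB002, 1.64% for D425, 1.98% for HD-MB03 and 3.61% for UW228. On 17p there were 0 SEs of 159 regions for MB002, where a count of 0 allows a share of up to 1.89% by a limit of 3 counts and up to 2.29% by the exact 95% interval, both above the 1.39% of the whole line. There were 8 for D425 (2.71%, 95% Clopper-Pearson interval 1.18 to 5.27), 7 for HD-MB03 (3.30%, 1.34 to 6.68) and 5 for UW228 (3.23%, 1.06 to 7.37). On 17q there were 35 for MB002 (4.49%, 3.15 to 6.19), 25 for D425 (4.39%, 2.86 to 6.42), 10 for HD-MB03 (1.68%, 0.807 to 3.06) and 14 for UW228 (2.51%, 1.38 to 4.18). The intervals cover counting error only and treat neighbouring regions of 1 culture as independent, so they are no test of an arm. The long-arm shares of MB002 and D425 were above those of their whole line, and the other intervals include the share of their line.

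The difference in SE share, long arm minus short arm, was 4.49 percentage points for MB002, 1.68 for D425, -1.62 for HD-MB03 and -0.71 for UW228. The G3-MB mean of 1.52 ± 3.06 (SD, n = 3) was 2.23 above UW228 (exact permutation test, two-sided p = 0.75, smallest possible 0.25). When regions were ranked by signal over the input of their arm and as many top regions were taken as the line had SEs, MB002 had 5 on 17p and 18 on 17q, D425 12 and 9, HD-MB03 9 and 11, and UW228 6 and 31. This ranking was chosen after the data were seen. It turned the difference between the G3-MB mean and UW228 to -3.54 percentage points.

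Over the merged loci, 14 on 17p and 62 on 17q held an SE in at least 1 line, and 4 and 16 did so in at least 2. The short-arm loci with SEs in at least 2 lines were at RAI1, SREBF1, MNT and KDM6B, and MB002 had a TE at each. RAI1, which encodes a chromatin-associated protein, had a signal of 11963 at rank 1725 for MB002, 75107 at rank 39 for D425, 62494 at rank 25 for HD-MB03 and 29260 at rank 562 for UW228. The region ran over 14.8 kb in MB002, 82.2 kb in D425, 111 kb in HD-MB03 and 70.4 kb in UW228, and its signal per base pair was 0.811, 0.914, 0.562 and 0.416 in the same order. In MB002 the acetylated stretch was split, with 3 regions that covered 55.2 kb of the place called as 1 region in HD-MB03.

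SREBF1 encodes a transcription factor of lipid synthesis. Its locus was an SE at rank 49 in D425 and rank 752 in UW228, where the lowest SE of the line had rank 753, and a TE in MB002 (rank 1258) and HD-MB03 (rank 336). MNT encodes a repressor that pairs with MAX and opposes MYC. Its locus ranked 1021 for MB002, 211 for D425, 33 for HD-MB03 and 3360 for UW228, with SEs in D425 and HD-MB03. KDM6B encodes a demethylase of the repressive mark H3K27me3, and its locus ranked 931, 258, 88 and 8036 in the same order, again with SEs in D425 and HD-MB03.

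The strongest short-arm regions of MB002 were at GAS7 (rank 582), KDM6B (rank 931) and ZZEF1 (rank 997), all TEs. The GAS7 region, in an intron of a growth arrest-specific gene expressed in neurons, had a signal of 24718, beside 32422 for the lowest SE of that line. In D425 the first place on 17p went to a region over NT5M, closest to the start of MED9, at rank 34, in HD-MB03 to RAI1, and in UW228 to SPECC1 at rank 141. The third place in HD-MB03 was a region inside RAP1GAP2 at rank 35, whose closest start site is that of OR1D5. In UW228 TOM1L2 and HS3ST3A1 followed at ranks 362 and 380. By stretch, D425 had 2 SEs among 196 distal regions, 5 among 66 middle and 1 among 33 proximal ones. HD-MB03 had 6 among 134, 1 among 60 and 0 among 18, and UW228 0 among 87, 4 among 48 and 1 among 20. The stretches were cut at the fitted input steps, so these counts are a description.

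On 17q one locus was an SE in all 4 lines. It spans CUEDC1 and MRPS23 and ranked 10 for MB002, 8 for D425, 62 for HD-MB03 and 28 for UW228, with signals of 372458, 151207, 45144 and 107336. An intronic region of MSI2, which encodes an RNA-binding protein of neural progenitors, was the strongest 17q region of every G3-MB line, at rank 5, 6 and 13 in MB002, D425 and HD-MB03. In UW228 the best of 2 regions that overlapped it was a TE of 5.24 kb at rank 11027, and the best region anywhere at the gene was another TE, at rank 4832. The transcription start site closest to it is that of CCDC182. Relative input at this region was 1.82 for MB002, 2.69 for D425 and 1.15 for HD-MB03. The part of input in these ranks was not tested. The locus over VMP1 and TUBD1 was at rank 9 in UW228, with SEs there and in D425 (rank 118) and TEs in MB002 (rank 2782) and HD-MB03 (rank 1708). The third places on 17q went to an intergenic region closest to SEPTIN9 in MB002 (rank 23), to the RPTOR region in D425 (rank 51), to one closest to TOB1 in HD-MB03 (rank 60) and to the integrin gene ITGA3 in UW228 (rank 167), and the second place in HD-MB03 to MRPL58 (rank 46).

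Of all 16 long-arm loci with SEs in at least 2 lines, 10 were SEs in MB002 and D425 alone, and MB002 was among the lines at 14, D425 at 15, UW228 at 4 and HD-MB03 at 3. MB002 and D425 had 35 and 25 long-arm SEs against 10 in HD-MB03, so they could share more of them. The loci described here are those of lowest mean rank over the lines with a region. The locus over TP53I13 and ABHD15 was an SE in MB002 (rank 148) and D425 (rank 226) and a TE in HD-MB03 (rank 522), with no region in UW228. SLC39A11, a zinc transporter gene, ranked 90 and 62 in MB002 and D425, against 748 in HD-MB03 and 5952 in UW228. A locus in RPTOR, the gene of a subunit of the mTORC1 kinase complex, ranked 178 and 51, against 2875 in HD-MB03, with no region in UW228. The locus at RPL38, a ribosomal protein gene, ranked 50 and 225, against 964, also with no region in UW228. MAP3K14, a kinase gene of the non-canonical NF-κB pathway, was an SE in MB002 (rank 271), D425 (rank 128) and UW228 (rank 413) and a TE in HD-MB03 (rank 500). LASP1, an actin-binding protein gene, was an SE in MB002 and UW228 at ranks 296 and 463, and YPEL2 in D425 and HD-MB03 at ranks 209 and 116.

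**Figure D5:**
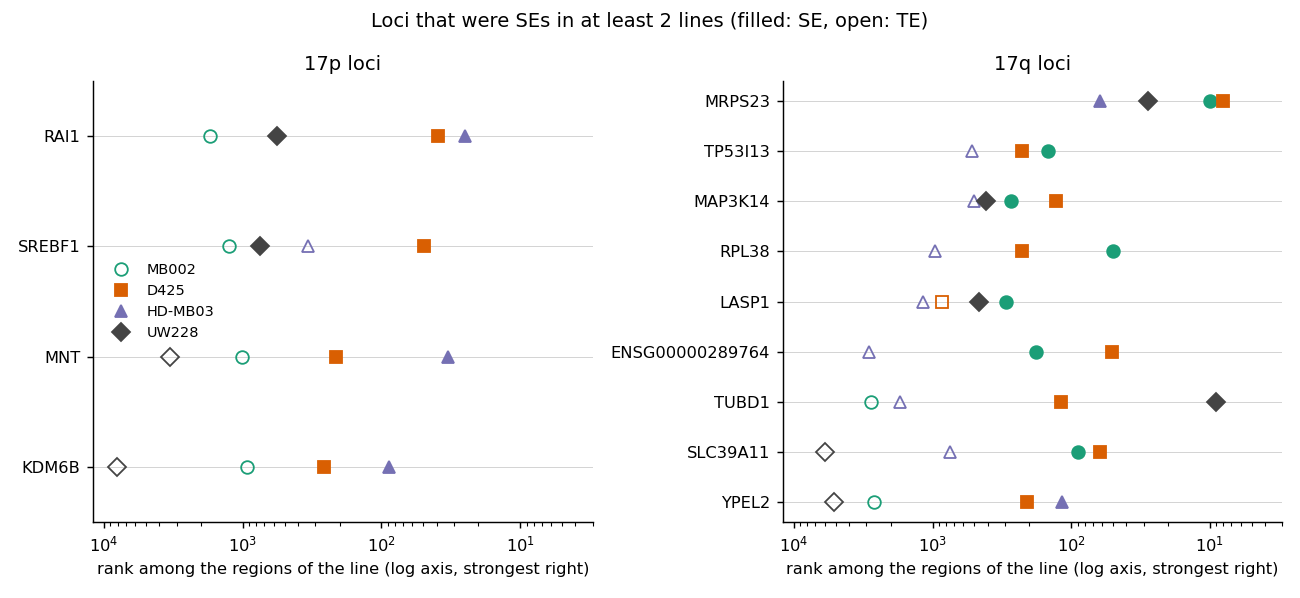
Rank of the best region of each line (log axis, strongest to the right) at loci that were SEs in at least 2 lines, for 17p (left) and 17q (right), named by the gene with the closest transcription start site. Filled symbols are SEs and open symbols TEs, and a line without a region has no symbol. MB002 is open at each of the 4 short-arm loci and filled at 7 of the 9 long-arm loci shown.

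Lists of 20 short-arm and 26 long-arm genes, chosen for known roles in cancer, signalling or neural development, share genes with the loci above and are no separate support for them. Of the short-arm genes 15, 16, 16 and 14 had a region in MB002, D425, HD-MB03 and UW228, and 0, 2, 2 and 1 an SE, at RAI1 and MNT. Of the long-arm genes 22, 18, 23 and 20 had a region and 4, 4, 1 and 2 an SE. In MB002 these were MSI2, SDK2, BIRC5 and IGF2BP1, in D425 MSI2, IGF2BP1, RPS6KB1 and LHX1, in HD-MB03 MSI2, and in UW228 RPS6KB1 and NF1. A listed gene was counted when a region lay within 50 kb of its start site or over its body. The SE counted for RPS6KB1 is the locus over VMP1 and TUBD1 given above and lies outside RPS6KB1. Those counted for BIRC5 and LHX1 lie outside these genes too. IGF2BP1, another RNA-binding protein gene, ranked 61 in MB002 and 81 in D425, against 4013 in HD-MB03 and 6776 in UW228. Relative input at the listed short-arm genes ran from 0.357 to 0.796 in MB002, with none at the line median, and at the listed long-arm genes from 0.7004 to 1.91.

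Over all protein-coding genes the same rule, a region within 50 kb of the start site or over the gene body, found an SE at 0 of 346 genes on 17p for MB002, 18 for D425, 16 for HD-MB03 and 6 for UW228. Of 839 genes on 17q it found one at 93 for MB002, 52 for D425, 26 for HD-MB03 and 35 for UW228. Genes of the other chromosomes were not counted, so no background stands beside these values. A region of any kind stood at 54.3% of the short-arm genes in MB002 and 80.3% in D425, and at 75.8% and 71.4% of the long-arm genes. In HD-MB03 these shares were 73.4% on 17p and 65.2% on 17q, and in UW228 60.1% and 69.4%.

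The DNA of the arms was also compared. TAATCC occurred 1.08 times per kb on 17p and 1.02 on 17q in MB002, against 0.871 on other chromosomes, and 0.921 and 0.854 against 0.768 in HD-MB03. More than 49% of these matches on either arm, from 49.9% on 17p in UW228 to 59.1% on 17p in D425, were directly followed by CAGC, against 37.1 to 44.6% on other chromosomes. TAATCC followed by CAGC is part of the Alu repeat, which is dense on this chromosome. With those matches left out, TAATCC occurred 0.495 times per kb on 17p and 0.503 on 17q in MB002, against 0.548 elsewhere, so the excess on chromosome 17 was no longer seen, and the same held in D425 (0.424 and 0.478 against 0.4996), HD-MB03 (0.390 and 0.409 against 0.442) and UW228 (0.448 and 0.470 against 0.479).

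Per kb, TGANTCA was less frequent on both arms than on other chromosomes in each line. It occurred 0.286 times per kb on 17p and 0.302 on 17q in MB002, against 0.342 elsewhere, and 0.409 and 0.402 against 0.449 in UW228, the line with the highest values. Of the central 300 bases of the regions that long, TAATCC was present in 24.8% on 17p, 26.1% on 17q and 23.7% elsewhere in MB002, and in 25.4%, 19.7% and 19.1% in HD-MB03. In UW228 these shares were 19.6%, 22.5% and 18.1%. In D425 they were 25.9%, 21.9% and 22.5%, so that 17q was below the other chromosomes there. TGANTCA was present on 17p, on 17q and elsewhere in 5.67%, 7.14% and 9.83% of them in MB002, in 9.88%, 8.92% and 10.3% in D425, in 5.47%, 10.2% and 10.1% in HD-MB03, and in 17.5%, 16.1% and 17.8% in UW228, so that 17q of HD-MB03 was not below the other chromosomes. The median GC content was 51.3% on 17p and 48.9% on 17q in MB002, against 44.04% on the other chromosomes, and the arms differed from each other by less than either differed from the rest of the genome.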

How the data were processed

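The 4 deposited tables hold 1 row per stitched region with its H3K27Ac signal and input signal, which the authors computed with ROSE as reads per base pair, normalised to mapped reads, times length. Reads were aligned with Bowtie2 2.3.0, converted with SAMtools 1.9 and peaks called with MACS2 2.2.6 on GRCh38, per the labels, and multi-mapping and duplicate reads were removed with sambamba by the methods. The authors left out regions near start sites, although 5.81 to 10.9% of the regions on either arm still overlap one. Library depth is unknown, so no counting interval of a signal could be given. The number of peaks, rank and SE call are the authors'. GENCODE 44 gave genes, start sites and exons. Arms were compared with exact permutation and sign-flip tests over lines, which cannot reach 0.05 here. Overlap was at least 1 bp. Steps, overlaps and tests were checked on simulated data. Named genes were the closest genes of the 3 top regions per line and arm, loci with SEs in at least 2 lines (at most 10 per arm by mean rank), and the listed genes. Members and lists were chosen with earlier results of these data known. One locus is not reported here. Python 3.11.15, NumPy 2.4.6, pandas 2.3.3, SciPy 1.17.1 and Matplotlib 3.10.9 were used.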

Additional observations from a re-analysis of the deposited data

How the results depend on the processing

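Alternatives covered how the input of an arm was summed, region length, start sites, GC content, the stretch next to the centromere, overlap, input subtraction, the SE limit and leaving out each line. The input difference between the G3-MB mean and UW228 kept its direction in each, with 0.669 to 1.44 on the log2 scale when a G3-MB line was left out and 0.743 at regions that overlap UW228, and that over 4 lines ranged from 0.4996 to 1.02 when a line was left out. The difference in region number lay between -0.626 and 0.0465 when a G3-MB line was left out, reversed without D425 (0.0465), and was between -0.468 and -0.408 for longer or top-ranked regions, for peaks and for covered length. The signal difference of -0.43 reversed to 0.144 per base pair and to 0.124 with regions of at least 1000 bp, became -0.904 at regions shared with UW228, and lay between -0.838 and -0.037 when a G3-MB line was left out. The SE share difference of 2.23 percentage points lay between 0.741 and 3.80 when a G3-MB line was left out, was 22.5 by covered length (30.1 for MB002, -6.65 for HD-MB03 and -14.3 for UW228), 0.825 for a stricter SE limit and 1.24 for the 500 top-ranked regions, and reversed to -3.54 for the top regions by signal over the input of the arm. The number of loci in all 4 lines was 28 on 17p and 120 on 17q when a larger overlap was asked of the shorter region. The cause of these reversals was not tested. No paired analysis was possible because the groups share no replicate numbers that tie their lines. With 1 culture per line and 4 lines, no test here could pass 0.05 whatever the size of the difference.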
